A study of Mus musculus with 4 samples.

Results

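The nuclear genes of the respiratory chain and ATP synthase were followed in mouse liver RNA from 4 genotypes. Members were the rows of the gene tables whose symbols begin with Nduf, Uqcr, Atp5, or Cox followed by 4 to 8, with Sdha, Sdhb, Sdhc, Sdhd and Cyc1. Of 101 such rows, 7 pseudogene rows were left out by the rule, which left 94. A mean of at least 1 CPM (counts per 1000000 counts of a library) over the libraries was reached by 86 of these 94, out of 33639 genes in the tables and 11743 genes above the same filter. The 86 comprised 36 complex I subunits, 8 complex I assembly factors (Ndufaf symbols), 4 complex II, 9 complex III, 12 complex IV and 17 complex V genes. Ndufa4 was placed in complex IV, where its protein is found, and the remaining members by symbol. Atp5s and Atp5sl carry a complex V symbol, but Atp5sl encodes an assembly factor and Atp5s a protein related to such factors. Without these and the Ndufaf genes, 76 genes were taken as structural subunits.

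The libraries were wild type (WT), a global Cyp27a1 knockout (Cyp27a1 KO), a global knockout labelled Cyp3a4 (Cyp3a KO) and the double knockout (DKO). Each came from the liver of 1 male mouse, whose age is not stated. All 4 mice ate standard chow freely, lived in groups under a 12 h light and dark cycle, and differed only in genotype according to the labels. As there was 1 library per genotype, no spread between animals could be estimated, no test was run, and every comparison is of libraries, not of genotypes. Cyp27a1 encodes the mitochondrial sterol 27-hydroxylase of bile acid synthesis, and Cyp3a genes encode microsomal cytochromes P450 that oxidise steroids and drugs.

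Oxidative phosphorylation takes place in the inner mitochondrial membrane. Complexes I and II pass electrons from NADH and succinate to coenzyme Q, complex III passes them on to cytochrome c, and complex IV hands them to oxygen. Complexes I, III and IV pump protons, and complex V, the ATP synthase, uses the gradient to make ATP. Most subunits are encoded in the nucleus and must be matched to a few encoded in mitochondrial DNA. Hepatocytes are rich in mitochondria and use this machinery for fatty acid oxidation, gluconeogenesis and urea synthesis.

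Library totals were 49745860 to 50378101 estimated counts, and 1 count was worth 0.0185 to 0.0214 CPM. Counts were scaled with trimmed-mean (TMM) factors, and log2 folds are of CPM plus 0.5, which understates the folds of low genes. The targeted genes matched the labels: Cyp27a1 stood at 746, 57.6, 727 and 65.3 CPM in WT, Cyp27a1 KO, Cyp3a KO and DKO, and the 9 Cyp3a genes summed to 9605, 25248, 2.70 and 13.2 CPM. Values below keep this order of libraries. The liver label was checked against 10 hepatocyte markers, which summed to 120952, 76631, 83208 and 96747 CPM, with 10 of 10 below WT in the DKO (median log2 fold -0.65). The 10 Kupffer cell markers summed to 285, 307, 190 and 457 CPM, and 7 of 10 were at least 1.5-fold higher in the DKO than in WT. The 5 erythroid markers summed to 608, 448, 286 and 280 CPM. Markers of lymphocytes (0 of 7 above the filter), neutrophils (at most 0.459 CPM in sum, Ly6g and Mpo at 0) and striated muscle (1.99 to 3.45 CPM, Myh4, Myl1, Tnnt3 and Mb at 0) were near their floors. In bulk tissue, fewer cells of a type and less RNA per cell cannot be told apart, and the part of these marker shifts in the values below was not tested.

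The structural subunits were lower by a small and rather even amount in the DKO library than in WT: 70 of 76 lay below 0, with a median log2 fold of -0.24. Over all 86 members the median log2 fold was -0.22 in the DKO, -0.10 in the Cyp3a KO and -0.03 in the Cyp27a1 KO, each against WT, where the medians of all genes were -0.01, 0.01 and 0.00. In those comparisons 74, 63 and 48 of the 86 members were below 0. The comparisons share the WT library and are set side by side only. Against the single knockouts, the DKO medians were -0.14 (Cyp3a KO) and -0.22 (Cyp27a1 KO), with 63 and 74 of 86 members below 0.

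The direction of some of these medians depended on the scaling. Scaling to the library total moved the median of all genes to 0.17 in the DKO against WT and the deposited TPM (transcripts per 1000000, a level per transcript length) moved it to 0.32, and the members' medians then stood at -0.02 and 0.14. Relative to the median of all genes, the members stood at -0.21 with TMM, -0.20 with library totals and -0.18 with TPM. The same relative values were -0.11, -0.10 and -0.10 in the Cyp3a KO and -0.03, -0.03 and -0.01 in the Cyp27a1 KO. TMM and library totals differ by a constant factor in each library, which values relative to the median gene remove. Their near-equal relative values were therefore fixed in advance, and only TPM adds a separate view. With these 3 scalings the members were lower than the median gene in each of these 3 comparisons. In the Cyp27a1 KO the difference was close to 0, with 48 of 86 members below the median gene by TMM. Without that recentring, the Cyp3a KO median was below 0 under all 3, the DKO median was above 0 with TPM, and the Cyp27a1 KO median was above 0 with library totals and with TPM. Members below 0 in the DKO against WT numbered 74 with TMM, 47 with library totals and 25 with TPM. Folds below are on the TMM scale.

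Members also differed from one another less than genes at large. The middle 50% of member log2 folds spanned 0.30 in the DKO, 0.17 in the Cyp3a KO and 0.19 in the Cyp27a1 KO, each against WT, where all genes spanned 0.60, 0.43 and 0.40. Among the 5046 genes with a mean of at least 20 CPM, the spans were 0.55, 0.40 and 0.36.

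**Figure D1:**
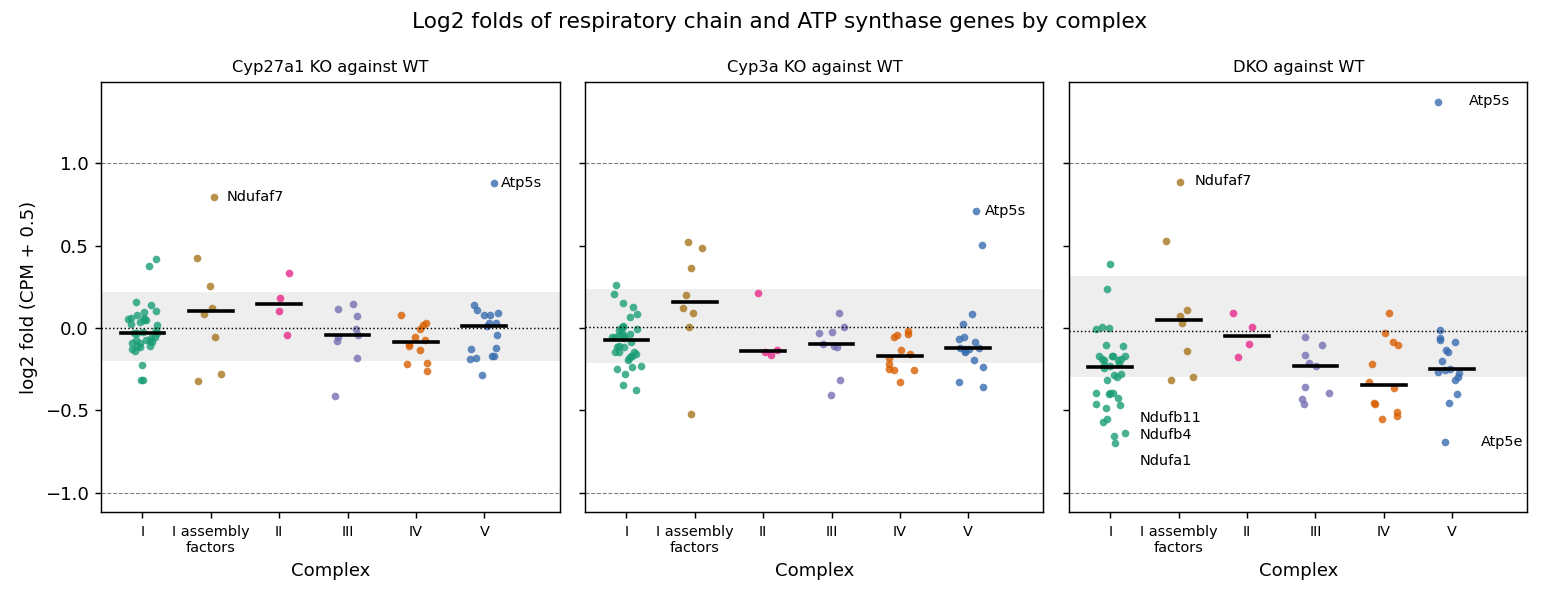
Log2 folds (CPM + 0.5) of the 86 members against WT, 1 panel per knockout library, by complex. Points are genes, black bars are medians, the grey band is the middle 50% of all 11743 genes, dotted lines mark the all-gene median and dashed lines 2-fold. In the DKO panel the medians of complexes I, III, IV and V lie between -0.35 and -0.23, with Atp5s at 1.37 apart from the rest.

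Few members passed a fold rule. A gene was called where its log2 fold reached the stated size and the exact 95% interval of its count ratio excluded 1. That interval, like the others given here, covers counting error only. At 2-fold, 10.0% of all genes were called in the DKO, 4.43% in the Cyp3a KO and 3.81% in the Cyp27a1 KO, each against WT, and among the members 1 (Atp5s), 0 and 0 were called. In the DKO against the Cyp3a KO and against the Cyp27a1 KO, 6.72% and 5.42% of all genes and 0 members were called.

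At 1.5-fold, 2 members (Atp5s and Ndufaf7) were higher in the Cyp27a1 KO and 0 lower, where 6.89% of all genes were higher and 4.96% lower. In the Cyp3a KO, 1 member (Atp5s) was higher and 0 lower, against 7.38% and 5.66% of all genes. In the DKO, 2 members (Atp5s and Ndufaf7) were higher and 4 (Atp5e, Ndufa1, Ndufb11 and Ndufb4) lower, which is 2.33% and 4.65% of the members, against 13.6% and 10.5% of all genes. With library totals, 0 members were 1.5-fold lower in the DKO than in WT and 4 were higher (Ndufaf3 and Ndufs1 besides those 2), against 6.80% and 20.3% of all genes. With deposited TPM, 0 were lower and 5 higher (Ndufa10 in addition), against 4.48% and 26.4%. With TPM recentred on the median gene, 3 were lower (Atp5e, Ndufa1 and Ndufb11) and 2 higher, against 9.86% and 13.2%. In the DKO against the Cyp3a KO, Atp5s was higher and Atp5k, Ndufaf2 and Ndufb4 were lower, where 9.59% of all genes were higher and 7.43% lower. In the DKO against the Cyp27a1 KO, 0 members were called, against 7.89% and 6.61%. The share of members called was below that of all genes in every one of these counts.

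The member with the widest range was Atp5s (chr12:69724950-69744660, plus strand, GRCm38). Its protein, also named Dmac2l, is related to assembly factors of the inner membrane and was earlier described as coupling factor B. Atp5s stood at 1.74, 3.61, 3.16 and 5.30 CPM. WT was lowest, the single knockouts were close to each other, and the DKO was highest. The DKO level was 3.05-fold that of WT (95% interval 2.38 to 3.95), from 81 and 287 counts. It was the lowest member by TPM (mean 3.52), and a filter at a mean of 5 CPM removes it.

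Ndufaf7 (chr17:78937136-78948052, plus strand), a methyltransferase needed for complex I assembly, had a like order of libraries. Its levels were 6.67, 11.9, 9.79 and 12.8 CPM, and the DKO was 1.92-fold above WT (95% interval 1.67 to 2.20). All 3 knockout libraries lay above WT, the DKO and the Cyp27a1 KO nearest each other.

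**Figure D2:**
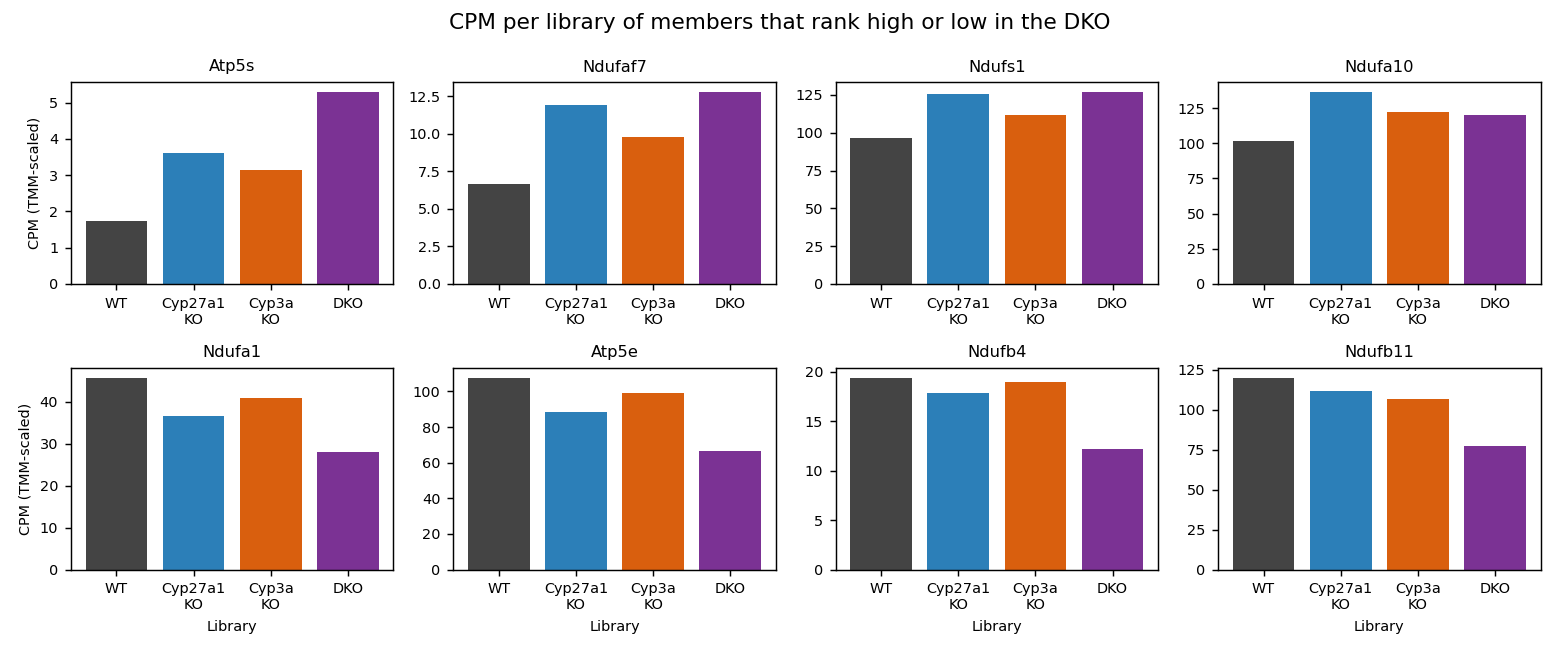
CPM in each of the 4 libraries (1 bar per library, axes from 0) for members that were high or low in the DKO. Atp5s runs from 1.74 in WT to 5.30 in the DKO, whereas Ndufa1 runs from 45.8 down to 28.0.

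Complex I subunits were mostly lower in the DKO, with 33 of 36 below 0 against WT and a median log2 fold of -0.24. In the Cyp3a KO 27 of 36 were below 0 (median -0.07), and in the Cyp27a1 KO 21 of 36 (median -0.03). The 7 core subunits, which hold the flavin and the iron-sulphur clusters of the arm in the matrix, had DKO, Cyp3a KO and Cyp27a1 KO medians of -0.19, -0.11 and 0.06. The 29 accessory subunits had medians of -0.28, -0.06 and -0.03.

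Among the core subunits, Ndufs1, which carries several iron-sulphur clusters, went the other way from its neighbours. Its levels were 96.6, 126, 111 and 127 CPM, and all 3 knockout libraries lay above WT (1.31-fold in the DKO, 95% interval 1.27 to 1.36). Its exons overlap those of Eef1b2 on the opposite strand, and the library kit does not mark strand, so reads of the 2 genes cannot be told apart there. Ndufs7, which holds the cluster nearest the coenzyme Q site, stood at 71.9, 75.1, 66.5 and 54.5 CPM, lowest in the DKO. Ndufv1, the subunit that binds NADH, stood at 177, 170, 146 and 144 CPM, lower in both libraries with the Cyp3a deletion. The log2 folds of Ndufs3, Ndufs8 and Ndufv2 in the DKO against WT were -0.19, -0.19 and -0.17.

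The lowest accessory subunits in the DKO against WT were Ndufa1, Ndufb4 and Ndufb11. Ndufa1 (chrX:37187588-37191163, minus strand), a small membrane subunit, stood at 45.8, 36.6, 41.0 and 28.0 CPM. The DKO was lowest and 1.63-fold below WT (95% interval 1.53 to 1.75). Ndufb4 (chr16:37647170-37654453, minus strand) stood at 19.4, 17.9, 18.9 and 12.1 CPM. Its first 3 libraries were within 1.54 CPM of one another, and the DKO was 1.60-fold below WT (95% interval 1.44 to 1.77). Ndufb11 (chrX:20615326-20617619, minus strand), whose loss in humans causes an X-linked disorder, stood at 120, 112, 107 and 77.2 CPM. The DKO was again lowest, 1.56-fold below WT (95% interval 1.5 to 1.62), and its exons overlap those of Rbm10 on the other strand.

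Other accessory subunits had differing orders of libraries. Ndufb2 stood at 39.2, 31.5, 37.6 and 26.2 CPM and Ndufs5 at 47.0, 47.7, 45.2 and 31.9 CPM, the DKO lowest in both. Ndufb5 was lower in both libraries with the Cyp3a deletion, at 76.5, 74.9, 58.8 and 55.2 CPM. Ndufa11 also had its lowest values in those libraries, at 45.7, 41.8, 35.9 and 36.7 CPM. Ndufa10, which has a nucleoside kinase fold, had the highest fold of the accessory subunits in all 3 knockout libraries against WT. Ndufa8 was the other accessory subunit above 0 in the DKO against WT, at a log2 fold of only 0.008. Ndufa10 stood at 102, 136, 122 and 120 CPM, above WT in all 3 knockout libraries, with log2 folds of 0.42, 0.26 and 0.24. In the DKO against the Cyp3a KO its count and recentred TPM folds differed by more than 0.3, so its rank among those libraries depended on the table.

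The 8 complex I assembly factors, which build the complex but do not stay in it, lay on both sides of 0 in the DKO and Cyp27a1 KO. In the Cyp3a KO they lay mostly above it. Their medians were 0.05 in the DKO, 0.16 in the Cyp3a KO and 0.10 in the Cyp27a1 KO, each against WT, and 5, 7 and 5 of 8 were above 0. Ndufaf1, part of the complex that builds the membrane arm, stood at 13.7, 18.6, 19.5 and 14.9 CPM, higher in both single knockouts and near WT in the DKO. Ndufaf3, which helps build the arm that binds coenzyme Q, stood at 5.88, 7.11, 6.29 and 8.71 CPM, highest in the DKO. Its partner Ndufaf4 stood at 31.1, 24.8, 21.5 and 25.2 CPM, with WT highest. Ndufaf2, a chaperone of late assembly, stood at 5.08, 5.58, 6.69 and 3.99 CPM, highest in the Cyp3a KO and lowest in the DKO. Ndufaf5, Ndufaf6 and Ndufaf8 had log2 folds of 0.07, -0.14 and 0.03 in the DKO against WT. Ndufaf5 (mean 3.07 CPM) was the measured assembly factor with the lowest level, and Ndufa4l2 (mean 0.993 CPM) lay just outside the filter.

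Complex II, succinate dehydrogenase, is also an enzyme of the citric acid cycle and has no subunit encoded in mitochondrial DNA. Sdha, the flavoprotein, stood at 428, 539, 497 and 456 CPM, and Sdhb, the iron-sulphur subunit, at 191, 205, 173 and 169 CPM. The membrane anchors Sdhc and Sdhd stood at 133, 152, 122 and 134 CPM and at 159, 154, 142 and 148 CPM. Sdha was above WT in all 3 knockout libraries, by 1.26-fold in the Cyp27a1 KO (95% interval 1.24 to 1.28), whereas Sdhd was below WT in all 3. The medians were 0.14, -0.14 and -0.05 in the Cyp27a1 KO, Cyp3a KO and DKO against WT.

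In complex III, 9 of 9 genes were below 0 in the DKO against WT, with a median of -0.23, and 7 and 6 of 9 in the Cyp3a KO and Cyp27a1 KO. Uqcrh, the hinge protein that aids contact with cytochrome c, differed from WT by like amounts in all 3 libraries. It stood at 127, 95.2, 95.8 and 92.0 CPM, so that WT alone was high. Cyc1, which carries the haem of cytochrome c1, stood at 228, 217, 184 and 178 CPM, lower in both libraries with the Cyp3a deletion. Uqcrfs1, the Rieske iron-sulphur protein, stood at 173, 166, 169 and 149 CPM. The core proteins Uqcrc1 and Uqcrc2 stood at 280, 303, 259 and 250 CPM and at 230, 242, 226 and 214 CPM, lowest in the DKO by a small amount. Of the small subunits, Uqcrq stood at 184, 178, 172 and 136 CPM, Uqcr10 at 62.9, 55.5, 67.0 and 47.7 CPM, and Uqcr11 at 109, 120, 101 and 104 CPM.

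Complex IV had the lowest DKO median, -0.35, with 11 of 12 genes below 0, and 12 of 12 were below 0 in the Cyp3a KO (median -0.17). Cox4i1, which binds regulatory nucleotides, stood at 296, 246, 261 and 216 CPM, with WT highest and the DKO lowest. Cox5a stood at 151, 131, 121 and 110 CPM and followed the same order of WT and DKO. Cox6a1 was level in 3 libraries and lower in the DKO, at 257, 241, 248 and 175 CPM (1.47-fold below WT, 95% interval 1.43 to 1.51). Cox7c and Cox6c stood at 141, 121, 118 and 97.2 CPM and at 147, 134, 134 and 103 CPM, again lowest in the DKO. Cox5b, which holds a zinc ion, was nearly the same in all 4 libraries by counts, at 104, 100, 102 and 102 CPM. Its TPM was 351, 433, 281 and 467, and its count and recentred TPM folds differed by more than 0.3 in the Cyp3a KO against WT. Cox7a2l, which ties complexes III and IV into supercomplexes, stood at 85.2, 87.1, 71.4 and 90.7 CPM and was the 1 gene of complex IV above WT in the DKO.

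Complex IV has subunit isoforms known from muscle, lung or testis, and these had 0 to 27 counts per liver library, beside a floor of 3 counts. Cox4i2 had 4, 5, 4 and 0 counts and Cox6a2 4, 1, 1 and 2. Cox6b2 had 11, 2, 4 and 15 counts and Cox7a1 27, 11, 15 and 8. Cox7b2, Cox8b and Cox8c had 0 counts in all 4 libraries, which allows up to 0.0554 to 0.0643 CPM. Ndufa4l2, the isoform of Ndufa4 induced by hypoxia, had 49, 53, 45 and 52 counts, with no library apart from the others. These 8 rows are the members below the filter. The liver forms Cox4i1, Cox6a1, Cox6b1, Cox7a2 and Cox8a were all above 80 CPM in every library, and Cox6b1 stood at 139, 147, 137 and 130 CPM.

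In complex V, 16 of 17 genes were below 0 in the DKO against WT, and 15 of 15 once Atp5s and Atp5sl are left out (median -0.26). Atp5b, which holds the catalytic sites, stood at 1298, 1433, 1241 and 1245 CPM and Atp5a1, its partner in the hexamer, at 1022, 1088, 964 and 924 CPM. Both were highest in the Cyp27a1 KO, and the DKO was within 1.11-fold of WT. Atp5c1 and Atp5d of the central stalk stood at 229, 243, 210 and 217 CPM and at 215, 220, 198 and 180 CPM.

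The smallest subunit of that stalk, Atp5e (chr2:174461072-174464105, minus strand), had the lowest fold of complex V. It stood at 108, 88.3, 98.9 and 66.5 CPM, with WT highest and the DKO 1.62-fold below it (95% interval 1.55 to 1.69). Atp5k, the subunit e that joins ATP synthase into dimers, had another order, at 59.3, 63.9, 84.4 and 48.1 CPM. The Cyp3a KO was highest, and the DKO was 1.75-fold below it (95% interval 1.67 to 1.84). Atp5l, its neighbour in the membrane, stood at 105, 92.8, 83.3 and 90.8 CPM and did not share that order. Atp5o of the peripheral stalk stood at 148, 130, 126 and 108 CPM.

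The 3 Atp5g genes encode the same mature c-ring subunit, and their levels per transcript length could be ranked. Atp5g3 had the highest TPM, 774, 848, 718 and 751, followed by Atp5g1, 423, 412, 344 and 509, and Atp5g2, 74.8, 89.5, 84.3 and 79.4. This order held in all 4 libraries. By counts, Atp5g3 had a log2 fold of -0.40 in the DKO against WT, Atp5g2 of -0.27 and Atp5g1 of -0.07, so the isoforms differed from each other in their folds.

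Levels per transcript length put the complexes side by side, as sums over 36, 4, 9, 12 and 17 genes for complexes I to V. The sums thus rest in part on the number of genes, and the median TPM per gene had another order. In WT that median was 152, 203, 296, 568 and 332 for complexes I to V, with complex IV highest and complex I lowest. Complex I summed to 5329, 5958, 5345 and 5663 TPM and complex II to 810, 1028, 818 and 1006 TPM. Complex III summed to 3207, 3492, 3186 and 3384 TPM, complex IV to 6181, 6616, 5848 and 6424, and complex V to 6466, 7052, 6262 and 6809. The complexes kept nearly the same proportions in all libraries: complex IV held 27.1% to 28.0% of the members' TPM and complex V 29.0% to 29.2%. Complex II held 3.66% to 4.29%. The highest members by mean TPM were Atp5b (1135), Uqcrq (895) and Ndufa4 (884), and the lowest were Atp5s (3.52), Ndufaf5 (4.10) and Ndufaf7 (6.33). All members together took 2.21%, 2.43%, 2.16% and 2.34% of TPM and 1.07%, 1.15%, 1.06% and 1.07% of counts. On the TPM scale the DKO sums of all 5 complexes were above WT, on a scale where the median log2 fold of all genes was 0.32.

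**Figure D3:**
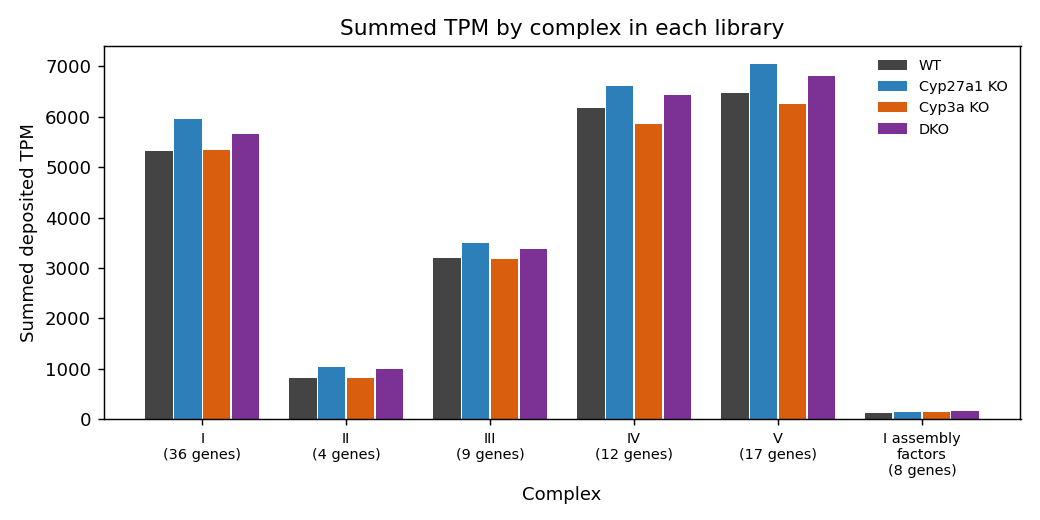
Summed deposited TPM of the measured members of each complex (bars from 0, 1 bar per library). The order of the sums is the same in all 4 libraries. Complex V has the highest sum (6262 to 7052) and the complex I assembly factors the lowest (116 to 159). The sums run over different numbers of genes.

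Short transcripts had lower folds than long ones in the DKO. A single exonic length was at hand for 84 members (all but Atp5o and Atp5sl), with a median of 772.5 nucleotides. In the DKO against WT, the 42 shorter members had a median log2 fold of -0.29 with 41 below 0, and the 42 longer members one of -0.15 with 31 below 0. Spearman's rho between length and fold was 0.44 across the 84 members, which share the same pair of libraries, and 0.01 across 11218 genes with a length. On the recentred TPM scale rho was 0.40. The 424 tested genes at or under the same length, which include the 42 shorter members, had a median of -0.12. The 10794 longer ones, which include the 42 longer members, had a median of -0.01. Short genes, with those members counted among them, were thus also lower in that library. In the Cyp3a KO against WT rho across the members was 0.05, and the shorter and longer members had medians of -0.08 and -0.11. In the Cyp27a1 KO against WT rho was 0.30, with medians of -0.05 and 0.03, so the trend was not confined to the DKO. In the DKO against the Cyp3a KO and against the Cyp27a1 KO, rho was 0.41 and 0.28. The part of RNA integrity and fragment length, for which no value was at hand, was not tested.

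**Figure D4:**
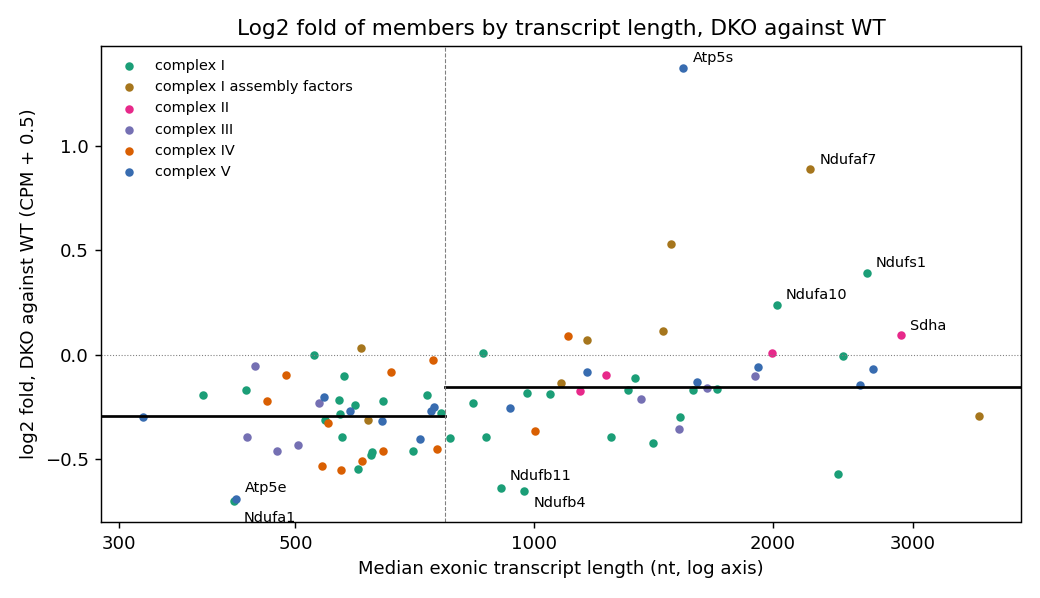
Log2 fold of each of 84 members in the DKO against WT by median exonic transcript length (nucleotides, log axis). Points are genes, coloured by complex, the dashed line marks 772.5 nucleotides, and black bars are the medians of the shorter (-0.29) and longer (-0.15) members.

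Each deletion could be followed in 2 separate library pairs that share no sample. For the Cyp3a deletion (Cyp3a KO against WT and DKO against Cyp27a1 KO), 57 of 86 members were lower in both pairs and 6 higher in both. That is 73.3% of members with the same sign, beside 57.9% of all genes. The count rests on the scaling, since 63 members had the same sign with TMM and 47 with library totals. In these pairs 63 and 74 of 86 members were below 0, and a high share of like signs would follow from that alone. The sizes of the folds were only weakly related (Pearson's r 0.20 and Spearman's rho 0.11 across 86 members, beside 0.34 and 0.24 across all genes). Across the 76 structural subunits they were not related (r -0.08 and rho 0.02). For the Cyp27a1 deletion (Cyp27a1 KO against WT and DKO against Cyp3a KO), 38 members were lower in both and 13 higher in both, which is 59.3% with the same sign beside 60.3% of all genes. Atp5s was the 1 member at least 1.5-fold higher in both pairs for Cyp27a1, with log2 folds of 0.88 and 0.67.

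**Figure D5:**
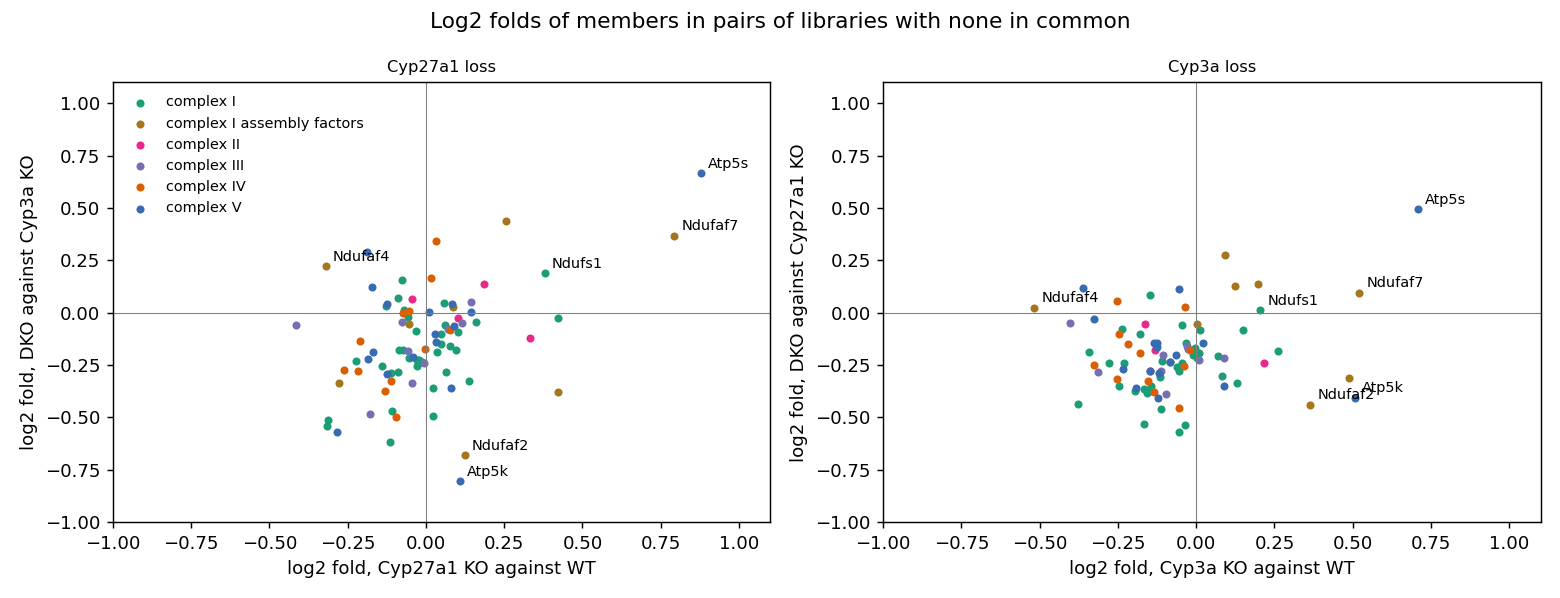
Log2 folds of the 86 members in both library pairs for the Cyp27a1 deletion (left) and the Cyp3a deletion (right). Points are genes coloured by complex. On the right 57 points lie in the lower left part, and on the left 38 do.

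Upstream sequences of members were examined because nuclear respiratory factor 1 (Nrf1), the ETS factor GABP and Yy1 are known regulators of these genes. RefSeq windows (GRCm38.p6) of 250 bases before and 50 after a start site were found for 73 of 86 members, 3 of them by a newer symbol. The words searched, on both strands, were GCGCATGCG (Nrf1), GCGCANGCG (a looser form that includes the first), CCGGAAG (ETS) and AAGATGGCG (Yy1). The first was found in 10 members (13.7%), beside 4.18% of 9161 tested genes and 1.95% of 27025 genes with a window. The looser form was found in 30.1% of members (15.6% of tested genes, 7.03% of all), CCGGAAG in 24.7% (20.4%, 9.93%) and AAGATGGCG in 12.3% (3.76%, 1.64%). The 10 members with GCGCATGCG (Atp5g2, Atp5k, Atp5l, Cox6a1, Ndufa11, Ndufa8, Ndufaf4, Ndufaf5, Uqcr11 and Uqcrc1) had a median log2 fold of -0.24 in the DKO against WT, and the other 63 one of -0.22. In the Cyp3a KO against WT these medians were -0.11 and -0.06. A match says only that the letters are present.

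Stretches upstream of 4 members are shown, 3 from the ends of the DKO range and 1 with the exact Nrf1 word. They read 5′ to 3′ on the gene's strand, leave out bases within any annotated exon, and have matches in capitals. Atp5s, the highest member, is followed by Ndufb4 and Ndufb2, among the lowest, and by Ndufaf4, which was lower in all 3 knockout libraries. They lie at chr12:69724874-69724944 (plus), chr16:37654454-37654618 (minus), chr6:39592315-39592564 (plus) and chr4:24897833-24898082 (plus).
Atp5s: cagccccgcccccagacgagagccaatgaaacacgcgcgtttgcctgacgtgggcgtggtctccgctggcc
Ndufb4: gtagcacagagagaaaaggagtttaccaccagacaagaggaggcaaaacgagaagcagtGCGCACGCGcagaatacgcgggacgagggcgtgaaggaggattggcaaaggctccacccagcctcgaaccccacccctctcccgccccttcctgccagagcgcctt
Ndufb2: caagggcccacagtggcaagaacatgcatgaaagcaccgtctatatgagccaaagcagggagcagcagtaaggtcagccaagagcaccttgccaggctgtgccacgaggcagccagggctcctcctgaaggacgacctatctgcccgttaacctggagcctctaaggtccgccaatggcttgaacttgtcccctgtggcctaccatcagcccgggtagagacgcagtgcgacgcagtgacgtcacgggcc
Ndufaf4: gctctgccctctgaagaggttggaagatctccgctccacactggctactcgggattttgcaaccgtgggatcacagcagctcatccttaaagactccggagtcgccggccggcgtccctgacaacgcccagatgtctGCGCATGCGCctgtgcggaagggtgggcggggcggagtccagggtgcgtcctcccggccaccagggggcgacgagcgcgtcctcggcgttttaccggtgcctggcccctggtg

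In Ndufaf4 the exact word is found on both strands, overlapping itself, and the capitals mark the union. In Ndufb4 the capitals mark 1 of 3 matches to the looser form in the whole window. No searched word was found in the windows of Atp5s and Ndufb2. For 27 of 73 members, the 250 bases before the start site overlap an exon of another gene, so these share this stretch with a neighbour. The same share was not counted over all genes.

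Genes known to regulate mitochondrial gene expression were also measured (20 of 20). Their medians were -0.15, -0.14 and -0.22 in the Cyp27a1 KO, Cyp3a KO and DKO against WT. On the recentred TPM scale these medians were -0.06, -0.17 and -0.10, so the lowest library depended on the scale. Esrra, the oestrogen-related receptor that binds many of the members' promoters, stood at 48.0, 31.4, 23.3 and 31.8 CPM, with WT highest and the Cyp3a KO lowest. Its relative Esrrg stood at 0.922, 1.53, 3.38 and 3.27 CPM, higher in both libraries with the Cyp3a deletion. The coactivator Ppargc1a stood at 19.1, 16.4, 11.9 and 17.1 CPM and Ppargc1b at 8.45, 5.34, 11.0 and 8.10 CPM, in different orders. Nrf1 stood at 10.8, 8.55, 8.89 and 7.68 CPM and the GABP subunit Gabpb1 at 7.08, 5.42, 5.27 and 4.49 CPM, both lowest in the DKO. Myc stood at 9.74, 30.4, 13.0 and 35.0 CPM, high in both libraries with the Cyp27a1 deletion. The log2 folds in the DKO against WT of Gabpa, Gabpb2, Yy1, Tfam, Tfb1m, Tfb2m, Polrmt and Tefm were -0.23, -0.21, -0.25, -0.30, 0.07, -0.03, -0.55 and 0.37. Those of Mterf3, Ppara, Polg, Twnk and Pprc1 were -0.47, -0.36, -0.09, -0.06 and -0.55.

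Of the assembly factors that the rule does not cover, 45 of 46 were measured, with medians of 0.08, 0.08 and 0.07. Acad9, which builds complex I with Ndufaf1, stood at 22.5, 38.3, 34.0 and 40.1 CPM, with WT alone low. Bcs1l, which inserts the Rieske protein into complex III, stood at 6.69, 11.3, 11.5 and 10.7 CPM and was likewise low in WT alone. Sco2, a copper chaperone of complex IV, stood at 57.2, 43.1, 38.0 and 21.6 CPM, highest in WT and lowest in the DKO. These factors thus did not share 1 direction.

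Among 17 measured electron carriers and partners, the medians were -0.01, -0.10 and -0.02. Cycs, cytochrome c itself, stood at 52.8, 43.6, 36.4 and 36.4 CPM, lowest in both libraries with the Cyp3a deletion. Atpif1, the inhibitor of ATP synthase, stood at 6.67, 7.11, 8.91 and 15.5 CPM, highest in the DKO. Gpd2 and Etfdh, which feed electrons to coenzyme Q from glycerol phosphate and fatty acid oxidation, stood at 30.9, 22.7, 27.7 and 12.7 CPM and at 288, 270, 262 and 185 CPM, both lowest in the DKO. The 13 subunits encoded in mitochondrial DNA had medians of -0.07, 0.11 and 0.18 in the Cyp27a1 KO, Cyp3a KO and DKO against WT, and 2 of 13 were below 0 in the DKO.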

How the data were processed

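The values come from RNA sequencing of 4 liver libraries. Per the labels' protocols, samples were stored in RNAlater, the RNA was purified by Qiagen RNeasy, and the TruSeq RNA v2 kit was used for the libraries. The build mm10 and the tools kallisto 0.43.1, HISAT2 2.0.5 and Trimmomatic 0.33 appear in the submitters' processing notes with no role. The tool and annotation behind the counts are not given in these sources. For each gene symbol the authors deposited an estimated count, of which 57.7% were whole, and these were rounded. The authors also deposited TPM, used for levels between genes and as an alternative. A single row without a gene name, with 0 counts, was dropped.

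Counts were scaled with TMM factors of 0.937, 0.996, 0.994 and 1.08 (edgeR 4.0.16, R 4.3.3). Log2 folds are of CPM plus 0.5, over genes with a mean of at least 1 CPM. Fold ratios were taken from CPM alone, with no pseudocount, and have exact 95% intervals (Clopper-Pearson, conditional binomial) for counting error only, since the reads carry no molecular identifiers and copies of 1 molecule may be counted more than once. Calls needed at least 2-fold or, as an alternative, 1.5-fold. The floor for a count of 0 was 3 counts. Places and lengths came from GENCODE M21 (GRCm38), where 84 of 86 members had a single gene entry by symbol, and upstream sequences from RefSeq (GRCm38.p6). Exons of 30 of 86 members overlap those of another gene, a share that was not counted over all genes.

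The members and lists were chosen with earlier results of these data known. Genes named were members past 2-fold, the extremes of each complex against WT, catalytic subunits, isoform families, TPM extremes, the members nearest the filter, the regulators, and up to 4 genes of each other list with large folds. A few are omitted for brevity, and members such as Ndufs5, Ndufaf5 and Atp5o were added once their values were known. The alternatives tried were library-total and median-of-ratios (DESeq2 1.42.0) scaling, deposited and recentred TPM, other filters, pseudocounts and fold rules, no counting interval, another place for Ndufa4, and summed CPM. Complex V without Atp5s and Atp5sl was added after seeing the data. Python 3.11.15, numpy 2.4.6, pandas 2.3.3, scipy 1.17.1 and matplotlib 3.10.9 were used.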

Additional observations from a re-analysis of the deposited data

Results flagged for a closer look

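Atp5k and Ndufaf2 differed between the library pairs that carry the Cyp27a1 deletion. In the DKO against the Cyp3a KO, Atp5k had a log2 fold of -0.80, and in the Cyp27a1 KO against WT one of 0.11. Ndufaf2 had log2 folds of -0.68 and 0.12 in the same pairs. Each value rests on 1 library a side, and the difference between the pairs was not tested. The pseudogene row Atp5l-ps2, which the rule leaves out, held 10, 12, 8 and 6 counts in WT, Cyp27a1 KO, Cyp3a KO and DKO, above the 3 counts that a count of 0 allows. It shares sequence with Atp5l, so its reads are uncertain.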

How the results depend on the processing

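Without replicates no library could be left out of its group, and the precision is that of counting alone. No paired analysis was possible because each genotype has 1 library. With library totals the members' median log2 folds were 0.059 (Cyp27a1 KO against WT), -0.017 (Cyp3a KO against WT), -0.022 (DKO against WT), -0.027 (DKO against Cyp3a KO) and -0.11 (DKO against Cyp27a1 KO). With deposited TPM they were 0.16, -0.018, 0.14, 0.14 and -0.036. The medians of all genes then stood at 0.08 to 0.17 and at 0.08 to 0.32. The other alternatives left these medians within the members' median 95% counting bounds. Members called in the DKO against WT numbered 2 with library totals (11.3% of all genes called), 2 with deposited TPM (12.8%), 6 at 1.5-fold (24.1%), and 0 at a mean of 5 CPM (8.62%) or a pseudocount of 2 (6.81%). In the Cyp27a1 KO against WT they numbered 1 with deposited TPM (4.33%) or a pseudocount of 0.1 (4.72%) and 2 at 1.5-fold (11.9%). At 1.5-fold they numbered 1 in the Cyp3a KO against WT (13.0%) and 4 in the DKO against the Cyp3a KO (17.0%). Of 30 medians by complex, 28 moved with deposited TPM and 25 with library totals, 16 and 8 of them changing sign, beside 3 moved and 1 changing sign with recentred TPM, 5 and 4 with summed CPM, 3 and 0 with no filter, 1 and 2 with the filter at 5 CPM, 0 and 1 with median-of-ratios scaling, and 0 and 0 with either pseudocount. Members with the same sign in both pairs numbered 49 to 53 for the Cyp27a1 deletion and 47 to 63 for the Cyp3a deletion.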

Other observations

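Coenzyme Q synthesis genes were mostly higher in the knockout libraries than in WT. Of 13 coenzyme Q synthesis genes, 12, 11 and 10 were above 0 in the Cyp27a1 KO, Cyp3a KO and DKO against WT, with medians of 0.28, 0.13 and 0.34. Coq4 stood at 3.56, 7.47, 5.37 and 6.94 CPM, with WT lowest. Coq8b, a kinase-like protein of the pathway, and Coq10b, which binds coenzyme Q, were high in the DKO alone, at 14.4, 19.2, 17.8 and 31.6 CPM and at 27.0, 29.2, 28.9 and 61.7 CPM.

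The 18 citric acid cycle genes had medians of 0.20, 0.01 and 0.02 and did not share 1 direction. Suclg2, a subunit of succinyl-CoA ligase, stood at 187, 331, 252 and 310 CPM, lowest in WT. Idh3a, of NAD-dependent isocitrate dehydrogenase, stood at 53.1, 41.2, 27.1 and 27.9 CPM, lowest in both libraries with the Cyp3a deletion. Of 22 import and membrane shape genes, whose medians were 0.11, 0.02 and 0.00, the chaperonins Hspd1 and Hspe1 stood at 309, 569, 476 and 482 CPM and at 64.5, 100.3, 109 and 81.3 CPM. WT was the lowest library for both. The 79 mitochondrial ribosomal protein genes had medians of 0.04, 0.06 and -0.05, and 47 of 79 were below 0 in the DKO against WT. Of these 79, 59 were below 0 in the DKO against the Cyp3a KO and 57 against the Cyp27a1 KO (medians -0.10 and -0.12). Of the 22 import genes 18, and of the 18 citric acid cycle genes 13, were below 0 in the DKO against the Cyp27a1 KO. No difference between these groups and the respiratory chain was tested.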
